A study of Selaginella moellendorffii with 8 samples.

Results

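The leafless rooting axes of the lycophyte Selaginella moellendorffii were compared with its leafy organs. The leafless side held 4 libraries, 2 from roots and 2 from rhizophores. The leafy side held 4 libraries, 2 from shoot tips and 2 from leaves, so that all 8 libraries of the series entered the comparison. Sides were set by the organ in each library's label, and each model was tested for the contrast between the mean of root and rhizophore and the mean of shoot and leaf. A model is 1 row of the deposited count table, named by a number or by an identifier that starts with Smoe.

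Lycophytes are vascular plants whose small leaves, the microphylls, have a single vein. In Selaginella, meristems in the angles of stem branches can grow out into rhizophores, leafless axes that carry no root cap and that later bear roots. Leaves and green shoot tips photosynthesize, whereas roots and rhizophores are axes without leaves that anchor the plant and take up water and minerals. All plants were grown untreated from stem cuttings at 80% humidity with 16 h of light and 8 h of dark. Roots with cap and hairs measured 5 to 10 cm at an age of 10 to 20 days. Rhizophores measured 2.5 to 3.5 cm at 4 to 7 days and were without cap, hairs, green colour or microphylls. Shoot tips were the green ends of young shoots that bore microphylls, 10 to 20 days after branching, and leaves were whole microphylls of 10 to 14 days. Every library came from 40 pooled pieces of tissue, and the labels do not tell whether both libraries of an organ were drawn from different plants. The p-values therefore reflect only the spread among these samples, which may be technical. The leafless side contained the youngest organ, so organ side and age cannot be told apart for the rhizophore.

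Total counts ranged from 10063538 to 27891111 in the leafless libraries and from 2826533 to 16058139 in the leafy ones. The table lists no count from 1 to 4, and 5 counts corresponded to 0.103 to 0.402 CPM (counts scaled to a common library size) in leafless and 0.438 to 2.15 CPM in leafy libraries, the highest being leaf replicate 1. None of the model names matched the reference gene table (0 of 25004), so no model can be given a function and the tissue labels could not be checked against marker genes. The authors' deposited averages handled the library labelled rhizophore replicate 2 as a root: fitted to TMM-scaled columns, their Root average drew 25.1% from root replicate 1, 25.2% from root replicate 2 and 49.8% from that library. Without TMM scaling the weights were 23.8%, 20.9% and 55.3%. It lies on the leafless side under either label, but the weight it carries in the contrast differs, and counts under both are given.

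Leafless and leafy organs differed in 6900 of 23662 models tested (29.2%; edgeR's quasi-likelihood test, adjusted p under 0.05), and in 42.2% at an unadjusted p under 0.05. Of these 6900, 3598 were higher in the leafless organs (15.2% of those tested) and 3302 were lower (14.0%). The 4 leafless libraries all lay above the 4 leafy ones in 2551 of the higher models (70.9%), and all below in 2351 of the lower ones (71.2%). Among all models tested the sides did not overlap in 14.2% with leafless above and in 12.1% with leafless below. In the authors' deposited table, both leafless averages lay above both leafy ones in 3260 of the models called higher and below both in 3007 of those called lower. Those averages come from the same libraries, and their Root average includes the library labelled rhizophore replicate 2. The share over all models tested was not counted, so the 3260 and 3007 are a description. The median log2 fold change over all models tested was 0.54, and 0.65 with DESeq2's size factors, but it rested largely on scarce models and on organs at 0. It was 0.20 with organs at 0 set to 5 counts, and 0.10 and 0.03 with a minimum of 10 CPM in 2 or 4 libraries. It was 0.93 without leaf replicate 2 and 0.82 without root replicate 1. All 3598 higher models lay above the median of 0.54. The 3302 lower ones lay below it by definition, as their log2 fold changes were under 0. In bulk tissue, a change in the proportion of a cell type and a change of RNA per cell cannot be told apart.

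The number of calls moved with single libraries. Each fit without a library leaves 1 library for its organ, which is then assumed to vary like the other organs, so without a rhizophore library the spread comes from root, shoot and leaf alone. The total fell to 3692 and 3749 when a shoot library (1 or 2) was dropped, to 3914 and 4316 when a root library (1 or 2) was, was 4364 without leaf replicate 1, and 11836 without rhizophore replicate 1. It was 10063 without the library labelled rhizophore replicate 2, with 5932 higher and 4131 lower, and 1886 with that library treated as one more root, with 859 higher and 1027 lower. The models called higher were 1523 and 1584 when shoot replicate 1 or 2 was left out, 1878 when leaf replicate 1 was, 2031 and 2304 for root replicate 1 or 2, and 7130 for rhizophore replicate 1. Those called lower were 2169 and 2165 when shoot replicate 1 or 2 was left out, and 1883 and 2012 for root replicate 1 or 2. With 1 term for each side in place of a term per organ, 2650 models passed. A fit with a term per organ takes its spread from libraries of the same organ. With 1 term per side, differences between the organs of a side enter the spread. The calls of the fit with a term per organ therefore apply to these organs and not to leafless organs at large. The 2551 models higher without overlap became 5315 and 4200 without rhizophore replicate 1 or 2, 1656 without leaf replicate 1, and 1330 and 1362 when a shoot library (1 or 2) was dropped.

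**Figure D1:**
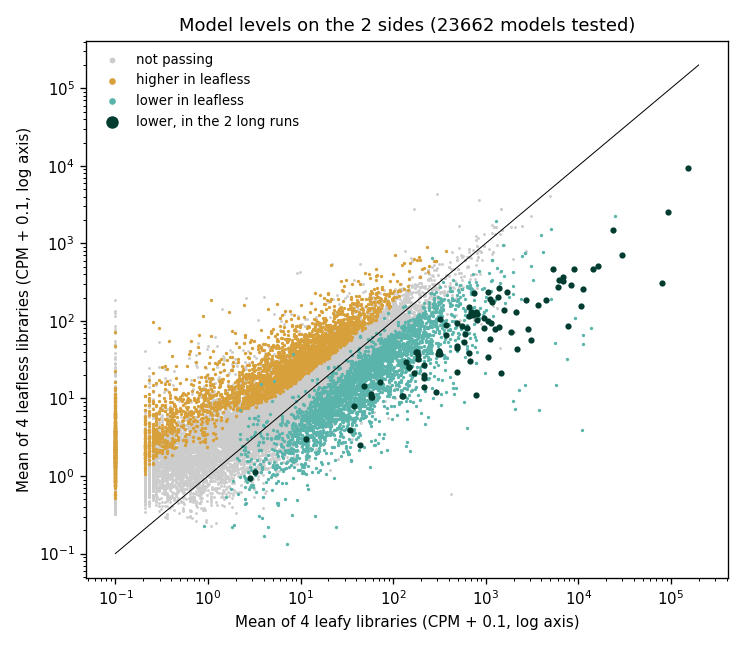
Mean level of each of 23662 models in the 4 leafy libraries (horizontal) and the 4 leafless libraries (vertical), both as CPM plus 0.1 on log axes, with 1 point a model, coloured by the outcome of the edgeR test. The points farthest to the right, the models most abundant in leafy organs, lie below the line of equal levels, and the 93 models of 2 long runs of table rows are among them.

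Among models with a mean of 100 CPM or more, those lower in leafless organs were the more numerous, and under 10 CPM those higher there were. Among 84 models with a mean of 1000 CPM or more over all libraries, 52 were lower in leafless organs (61.9%) and 0 were higher by edgeR's adjusted p, 1 by its unadjusted p under 0.05, 1 by limma-voom and 8 by DESeq2. Between 100 and 1000 CPM, 609 of 1440 were lower and 150 higher, whereas between 1 and 10 CPM 508 of 8506 were lower and 1306 higher. Between 10 and 100 CPM, where most of the lower models stood, the directions were closer, with 2129 of 9257 lower and 1880 higher. The models called higher took 2.74% and 2.73% of the counts in the shoot libraries and 3.19% and 3.16% in leaf, while root had 18.9% and 18.5% and rhizophore 16.6% and 24.7%. The models called lower took 71.5% and 72.0% of counts in shoot and 68.8% and 68.7% in leaf, but in root 26.9% and 23.1%, and in rhizophore 18.6% and 13.9%. These shares follow from how the models were chosen and are a description.

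Over all models called, the folds were of like size in both directions, with median log2 fold changes of 1.97 for the higher and -1.78 for the lower models, or 1.62 and -1.72 with organs at 0 set to 5 counts. Among abundant models the falls were larger than the rises. With every library of the higher side at 50 CPM or more and no overlap between sides, 233 models were higher in leafless organs and 1152 were lower. How many tested models reached 50 CPM throughout a side was not counted, so these counts have no background share. Rhizophore and root differed in 36.6% of all models tested and leaf and shoot in 0.0127%. Whether the minimum was harder to meet on the leafless side was not tested. With organs at 0 set to 5 counts, the highest log2 fold change was 3.45 among the 233 and the lowest was -12.07 among the 1152, for Smoe_00044417. The fitted medians were 1.33 and -1.996, and with such organs at 5 counts they were unchanged to 2 decimals. A difference of more than 2 on the log2 scale was found for 37 of the higher and 575 of the lower models, and one of more than 4 for 0 of the higher and 151 of the lower. Without rhizophore replicate 1 the 233 became 681 and the 37 became 171. Without the library labelled rhizophore replicate 2 they were 420 and 48, without root replicate 2 361 and 81, and without leaf replicate 1 145 and 38. The lower models stayed the more numerous in each of these fits, at 1349, 1238, 816 and 1151 models.

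**Figure D2:**
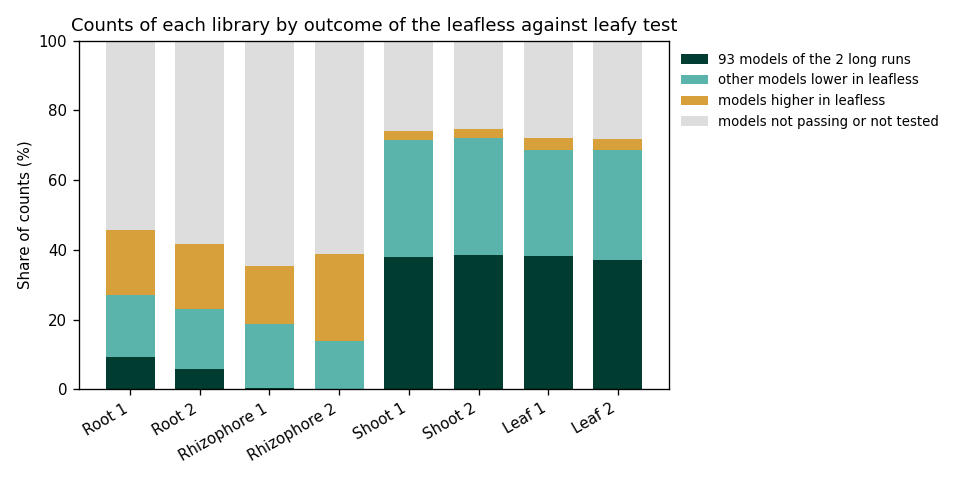
Share of each library's counts (vertical, percent) taken by the 93 models of 2 long runs of table rows, by other models lower in leafless organs, by models higher there, and by the rest. The 93 models take 37.1 to 38.5% of counts in the 4 leafy libraries and 0.0323 to 9.22% in the 4 leafless ones.

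A large part of the leafy counts came from models that stand next to each other in the table. The deposited row order, whose basis no source used here gives, held a run of 67 consecutive models called lower in leafless organs, in rows 7617 to 7683, and a run of 26 that ended the table, in rows 24979 to 25004. The next longest run of lower models had 6 models and the longest run of higher models had 5. Within 20 rows of either end of the first run, 37 models were tested, of which 7 were lower and 3 higher. In the 20 rows before the second run, 4 of 19 were lower and 2 higher. The runs were found after the calls were seen, so their counts carry no test. All 52 tested models with numbers from 137685 to 137890 fell in the first run.

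**Figure D3:**
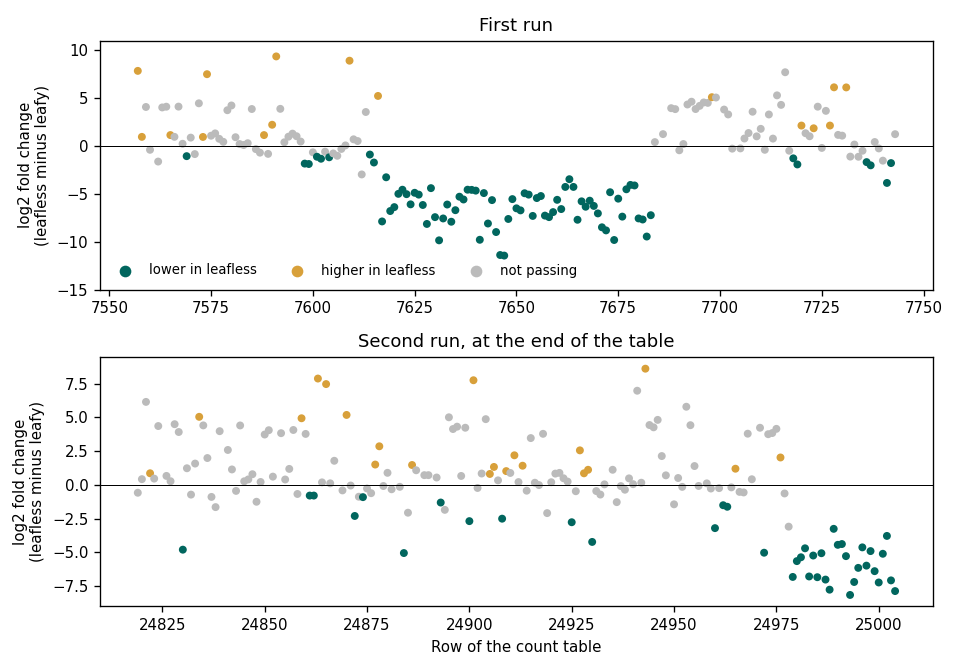
Log2 fold change, leafless minus leafy (vertical), of the models tested, by row of the count table (horizontal), around the run of 67 models (upper panel) and the run of 26 at the table's end (lower panel), coloured by the outcome of the edgeR test. Inside both runs every model lies below 0, and next to them models lie on both sides of 0.

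The 93 models of these runs took 37.9% and 38.5% of all counts in shoot replicates 1 and 2, and 38.1% and 37.1% in leaf. They took 9.22% and 5.68% in root, 0.377% in rhizophore replicate 1 and 0.0323% in the library labelled rhizophore replicate 2. Wilson intervals at 95%, for counting error alone, extended no more than 0.0565 points from these shares. The leafy libraries lay close together, while the leafless ones spread widely, with both root libraries above both rhizophore libraries. Of the 10 most abundant models in leafy organs 7 were in the runs, and of the 100 most abundant 32 were.

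In leaf these models stood at a median of 79.1% of their shoot level, from 22.2% to 118%, and 0 of the 93 passed the leaf against shoot test by edgeR's adjusted p, its unadjusted p under 0.05, limma-voom or DESeq2. As edgeR called only 0.0127% of all models there, that count says nothing particular about the 93. In root the median was 15.9% of the shoot level, from 0.712% to 57.4%, and in rhizophore it was 0.107%, from 0 to 8.74%. The rhizophore was called below the root in 84 of the 93 models, against 1178 of the 3302 models called lower and 24.8% of all models tested. It was called above the root in 0, which also held for edgeR's unadjusted p under 0.05, limma-voom and DESeq2. The root was called below the shoot in 40 of the 93, against 8.40% of all models tested, and the rhizophore in 91, against 11.8%. The 93 were chosen as models called lower in leafless organs, so an excess over these shares follows from the choice and is a description. In the library labelled rhizophore replicate 2, 57 of the 93 were listed at 0, and in replicate 1, 20 were. All 93 were above 0 in root.

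A few models of the runs, named here after their values were seen, stood apart. For 137822.v1 and 137727.v1 the rhizophore mean exceeded the root mean. The model 137727.v1 had 971 CPM in the first rhizophore library and 69.6 CPM in the other, compared with root levels of 627 and 227 CPM and shoot levels of 5669 and 6240 CPM. The model 137822.v1 was at 910.1 and 55.5 CPM in rhizophore, 598 and 293 CPM in root, and 9332 and 9844 CPM in shoot. In both models the excess over root was therefore in rhizophore replicate 1 alone. In 4 models the sides overlapped: 137764.v1, where root replicate 1 at 241 CPM was above leaf replicate 1 at 238 CPM, and 139200.v1, 432681.v1 and 432683.v1, which were scarce everywhere, at 16.7 CPM or less.

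Over the alternatives run with these models in the table, between 76 and 93 of the 93 kept the call, except for 8 with 1 term per side and 4 with rhizophore replicate 2 taken as a root. Taking the 93 models out of the table and fitting again left 6761 models called, 3530 higher and 3231 lower.

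**Figure D4:**
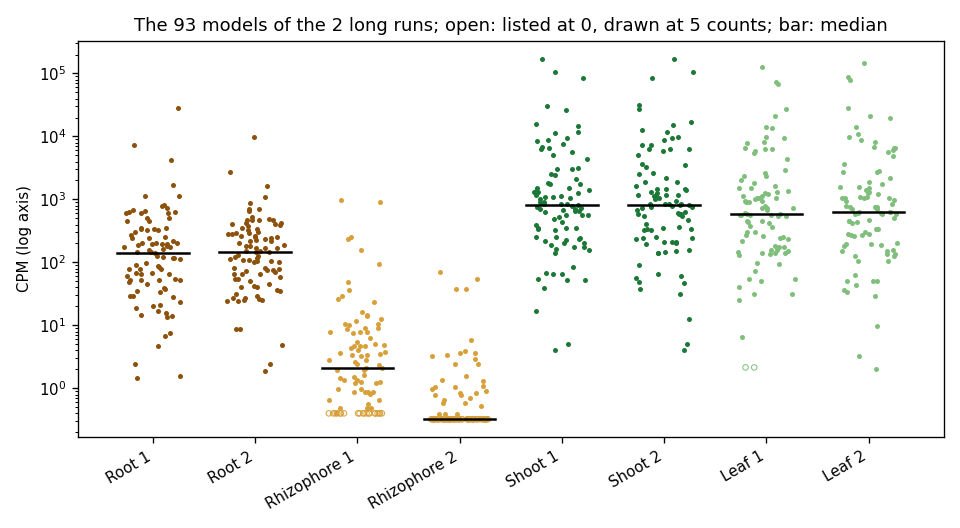
Level of the 93 models of the 2 long runs in each library (CPM, log axis), with 1 point a model, open points for models listed at 0 and drawn at the level of 5 counts, and a bar at the median, which is 0 in the library labelled rhizophore replicate 2 and drawn there at 5 counts. Medians were 822 and 815 CPM in shoot, 591 and 629 CPM in leaf, 141 and 149 CPM in root and 2.09 CPM in rhizophore replicate 1.

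The largest fitted falls among abundant models were in a pair with its highest levels in shoot. The model 105500.v1 was at 7843 and 6290 CPM in shoot, 551 and 474 CPM in leaf, 7.83 and 20.4 CPM in root, and listed at 0 in both rhizophore libraries. All leafy libraries lay above all leafless ones, and with the rhizophore set to 5 counts per library the leafless organs were at least 840.2-fold lower (edgeR adjusted p = 1.27e-05). The model Smoe_00044417 was at 21848 and 19988 CPM in shoot, 883 and 1246 CPM in leaf, 6.67 and 8.26 CPM in root, and 0 and 0.324 CPM in rhizophore, the last being the smallest count the table lists. Its log2 fold change was -11.99 (SE 0.72, edgeR adjusted p = 1.25e-05), a size that hangs on the rhizophore libraries. It was -11.35 without rhizophore replicate 1, -14.18 without the library labelled replicate 2 and -14.63 with that library taken as a root. Shoot stood above leaf in both models of the pair, with leaf minus shoot at -3.79 and -4.30 in log2 units. Neither difference passed the leaf against shoot test (edgeR adjusted p = 0.236 and 0.246).

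The largest rises among abundant models were smaller than these falls. The model 269004.v1 was at 78.0 and 61.5 CPM in root and 154 and 141 CPM in rhizophore, against 11.1 and 7.52 CPM in shoot and 11.2 and 7.36 CPM in leaf. It was 11.01-fold higher in leafless organs (log2 fold change 3.46, SE 0.28, edgeR adjusted p = 4.78e-05). For 439207.v1 the levels were 612 and 221 CPM in root and 211 and 289 CPM in rhizophore, against 29.2 and 32.7 CPM in shoot and 26.7 and 34.1 CPM in leaf. It was 10.5-fold higher (log2 fold change 3.39, SE 0.36, edgeR adjusted p = 0.000195). In both models the lowest leafless library stood above the highest leafy one, and their calls held in all 21 alternatives.

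Both of the most abundant models lower in leafless organs were in the runs. The model 236852.v1, in the first run, was at 172070 and 168710 CPM in shoot and 125270 and 144210 CPM in leaf. It was at 28022 and 9786 CPM in root and at 251 and 37.6 CPM in rhizophore. The leafless organs were 91.8-fold lower (log2 fold change -6.52, SE 0.82, edgeR adjusted p = 0.0004835), and root replicate 1 was the highest and the library labelled rhizophore replicate 2 the lowest of that side. The model 139170.v1, the first of the second run, was at 103760 and 105360 CPM in shoot, 73399 and 88165 CPM in leaf, 7260 and 2687 CPM in root, and 233 and 37.2 CPM in rhizophore. It was 112-fold lower (log2 fold change -6.81, SE 0.79, edgeR adjusted p = 0.000313). The sizes also moved. Without rhizophore replicate 1 the log2 fold changes of 236852.v1 and 139170.v1 were -7.30 and -7.55, and with 1 term per side they were -4.00 and -5.18. Both calls ended with 1 term per side (adjusted p = 0.137 and 0.0537) and with rhizophore replicate 2 taken as a root (0.0985 and 0.0605).

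Models higher in leafless organs with sides that did not overlap reached lower levels. The most abundant of them, 173723.v1, was at 1391 and 1622 CPM in root and 292 and 313 CPM in rhizophore, against 233 and 237 CPM in shoot and 207 and 252 CPM in leaf. It was 2.90-fold higher (log2 fold change 1.54, SE 0.25, edgeR adjusted p = 0.00168), with both root libraries far above the rest. The call ended with 1 term per side (0.0631), with rhizophore replicate 2 taken as a root (0.142) and in the test of a difference above 1 on the log2 scale (0.0552). The next, 271191.v1, was at 954 and 635 CPM in root and 446 and 1155 CPM in rhizophore, against 363 to 392 CPM in the leafy libraries. Its 2.13-fold rise (log2 fold change 1.09, SE 0.33, edgeR adjusted p = 0.0343) no longer passed in 11 of 21 alternatives, where the adjusted p reached 0.474. Among these were the edgeR fits without leaf replicate 1 or 2 (0.132 and 0.116), shoot replicate 1 or 2 (0.119 and 0.118) and root replicate 1 (0.0915).

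**Figure D5:**
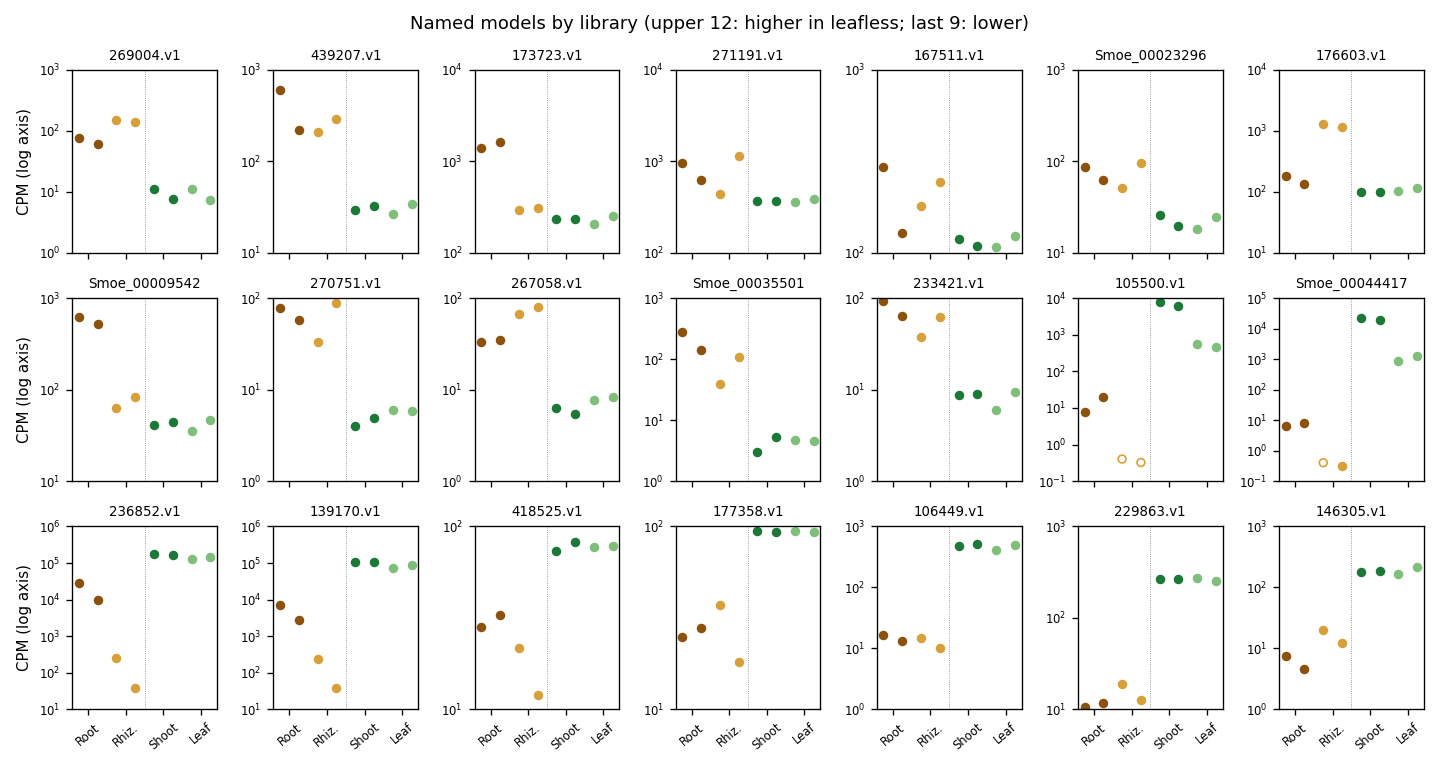
Level in each library (CPM, log axis) of the 21 models named by rule, with root, rhizophore, shoot and leaf from left to right in each panel and open points for values listed at 0, drawn at 5 counts. The first 12 panels hold models higher in leafless organs and the last 9 models lower there, and in each panel the 4 libraries on one side of the dotted line lie above the other 4.

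Many models called between the sides also differed between root and rhizophore. Of the 6900 models, 2642 also differed between rhizophore and root, which is the same test as whether these organs stood at unequal distances from the leafy mean. They were 1768 of the models lower in leafless organs (53.5%) and 874 of those higher there (24.3%), against 36.6% of all models tested. Among the 1768, the rhizophore was below the root in 1178 and above it in 590. Among the 874 it was above the root in 692 and below it in 182. Leaf and shoot differed in 3 of the 6900 (0.0127% of all models tested), all 3 lower in leafless organs. A low count there does not show that leaf and shoot were alike, since the test of 2 against 2 libraries shares its spread with root and rhizophore, whose replicates stood farther apart. The chi-square per degree of freedom between replicates was 119.3 in root and 238 in rhizophore, against 13.01 in shoot and 4.446 in leaf, a measure that also grows with depth. As above, fits without a library, or with rhizophore replicate 2 taken as a root, leave 1 library for an organ. Its spread is then taken from the other organs. The 2642 became 1543 and 1556 without leaf replicate 1 or 2, 6010 and 4998 without rhizophore replicate 1 or 2, 834 and 920 when a root library (1 or 2) was dropped, 1322 and 1315 when a shoot library (1 or 2) was, and 109 with rhizophore replicate 2 taken as a root.

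Opposite patterns within the leafless side are shown by the pair named for its uneven levels there among abundant models higher in leafless organs. The model 176603.v1 was at 1315 and 1168 CPM in rhizophore, but 180 and 134 CPM in root, against 100.3 and 99.9 CPM in shoot and 102 and 118 CPM in leaf. Rhizophore minus root was 2.98 in log2 units, with SE 0.36 (edgeR adjusted p = 0.00073), while root against shoot, at 0.65, did not pass (adjusted p = 0.165). The model Smoe_00009542 was at 627 and 523 CPM in root, but 62.9 and 83.2 CPM in rhizophore, against 40.8 and 44.4 CPM in shoot and 35.3 and 46.5 CPM in leaf. There rhizophore minus root was -2.98 in log2 units, with SE 0.36 (edgeR adjusted p = 0.00067), and rhizophore against leaf, at 0.83, did not pass (adjusted p = 0.11). Both models passed for the leafless side as a whole, at log2 fold changes of 2.07 and 2.29, or 2.73 and 2.96 with 1 term per side. With rhizophore replicate 2 taken as a root, 176603.v1 was at 2.94. The call of Smoe_00009542 ended with rhizophore replicate 2 taken as a root (edgeR adjusted p = 0.0726).

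Other models were even within a side. The model Smoe_00023296 was at 87.7 and 62.6 CPM in root and 51.8 and 96.5 CPM in rhizophore, against 25.7 and 19.5 CPM in shoot and 18.1 and 24.9 CPM in leaf. It was 3.37-fold higher in leafless organs (log2 fold change 1.75, SE 0.29, edgeR adjusted p = 0.00203), and rhizophore and root differed by -0.02. The model 167511.v1 had the smallest such difference, 0.01, but its 1.84-fold rise, from 107 to 124 CPM in leafy libraries to 128 to 293 CPM in leafless ones, was the weakest of those named (edgeR adjusted p = 0.0476). It no longer passed in 11 of 21 alternatives, among them the edgeR fits without leaf replicate 1 or 2 (0.162 and 0.123), shoot replicate 1 or 2 (0.134 and 0.158) and root replicate 1 (0.0697).

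On the leafy side the evenest models differed little between all 4 libraries. The model 177358.v1 was at 94.0 and 93.5 CPM in shoot and 94.8 and 92.7 CPM in leaf, against 24.9 and 27.9 CPM in root and 37.3 and 18.2 CPM in rhizophore. It was 3.47-fold lower in leafless organs (log2 fold change -1.79, SE 0.27, edgeR adjusted p = 0.00122). For 418525.v1 the levels were 73.4 and 81.8 CPM in shoot and 77.1 and 78.0 CPM in leaf, against 28.1 and 32.9 CPM in root and 21.8 and 11.98 CPM in rhizophore. It was 3.42-fold lower (log2 fold change -1.77, SE 0.26, edgeR adjusted p = 0.00104). These models were chosen for the smallest differences between shoot and leaf, so their small spread in the leafy libraries, an SD of 0.885 and 3.47 CPM (n = 4), is a description.

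Comparisons of single organs that share no library allow the contrast to be read in separate libraries, although all tests take their spread from the same fit. Root against shoot and rhizophore against leaf called 372 models higher in both and 848 lower in both. The 372 were 30.02% of the 1239 models higher in root than in shoot (5.24% of those tested) and 16.8% of the 2210 higher in rhizophore than in leaf (9.34%). The 848 were 42.7% of the 1988 lower in root (8.40%) and 33.7% of the 2514 lower in rhizophore (10.6%). In the other pairing, models passed in 9.76% for root against leaf and in 21.8% for rhizophore against shoot. It called 290 higher in both, which was 39.5% of 734 (3.10% of those tested) and 12.2% of 2372 (10.0%). It called 754 lower in both, which was 47.8% of 1576 (6.66%) and 27.0% of 2797 (11.8%). All of these models were also called in the contrast of sides. That contrast is the mean of both comparisons of either pairing, taken from the same fit. This overlap therefore follows nearly from the choice of models and is a description. Passing all 4 organ comparisons in the same direction were 233 models higher and 684 lower.

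These overlaps moved with nearly every library, in fits that leave 1 library for the organ concerned and take its spread from the other organs. The 1220 models of the first pairing became 550 and 568 without leaf replicate 1 or 2, 5250 and 3353 without rhizophore replicate 1 or 2, 107 and 334 when a root library (1 or 2) was dropped, and 376 and 368 when a shoot library (1 or 2) was. The 1044 of the second became 295 and 346, 5185 and 3308, 49 and 287, and 415 and 398 in the same fits. With rhizophore replicate 2 taken as a root, which leaves 1 rhizophore library, edgeR called 0 in the first pairing (1663 at an unadjusted p under 0.05 in both comparisons) and 5 in the second. DESeq2's test gave 2597 and 2456, and limma-voom 1432 and 1602.

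Of the models named from these pairings, 3 were lower in leafless organs. The model 106449.v1, which led both pairings, was at 470 and 515 CPM in shoot and 408 and 503 CPM in leaf, against 16.4 and 13.2 CPM in root and 14.6 and 10.1 CPM in rhizophore. Root minus shoot was -5.05 in log2 units (edgeR adjusted p = 0.000503) and rhizophore minus leaf was -5.20 (adjusted p = 6.9e-05). The 4 leafless libraries lay close together, far below the 4 leafy ones.

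A similar level on each side was seen in 229863.v1, at 267 and 269 CPM in shoot and 271 and 253 CPM in leaf, against 10.6 and 11.8 CPM in root and 18.9 and 12.7 CPM in rhizophore. Root minus shoot was -4.58 and rhizophore minus leaf -4.05 in log2 units (edgeR adjusted p = 0.000503 and 0.000151). The model 146305.v1 was at 176 and 187 CPM in shoot and 166 and 217 CPM in leaf, against 7.50 and 4.58 CPM in root and 20.0 and 12.4 CPM in rhizophore. Root minus leaf was -4.99 and rhizophore minus shoot -3.48 in log2 units (edgeR adjusted p = 0.000648 and 0.00054), and the rhizophore stood above the root by 1.42 (adjusted p = 0.0271). The calls of these 3 models in the contrast of sides held in all 21 alternatives, with log2 fold changes from -5.20 to -4.83 for 106449.v1, -4.34 to -4.01 for 229863.v1 and -4.32 to -3.87 for 146305.v1.

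In the other direction the leading models were of middle abundance. The model Smoe_00035501 was at 280 and 142 CPM in root and 39.6 and 110 CPM in rhizophore, against 3.01 and 5.26 CPM in shoot and 4.74 and 4.47 CPM in leaf. It was 28.9-fold higher in leafless organs (log2 fold change 4.85, SE 0.44, edgeR adjusted p = 0.000127), above the 3.46 of the models at 50 CPM or more in every leafless library. With rhizophore replicate 2 taken as a root it was 4.27. The model 270751.v1 was at 77.6 and 57.9 CPM in root and 32.9 and 88.9 CPM in rhizophore, against 4.05 and 4.95 CPM in shoot and 6.03 and 5.87 CPM in leaf. It was 12.4-fold higher (log2 fold change 3.63, SE 0.36, edgeR adjusted p = 0.000151). In both, the lowest leafless library was rhizophore replicate 1.

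The remaining pair rose less. The model 233421.v1 was at 92.95 and 64.1 CPM in root and 37.2 and 62.7 CPM in rhizophore, against 6.03 to 9.38 CPM in the leafy libraries (7.47-fold, edgeR adjusted p = 0.000186). For 267058.v1 the levels were 33.1 and 34.6 CPM in root and 67.8 and 79.5 CPM in rhizophore, against 5.36 to 8.42 CPM in the leafy libraries (7.24-fold, edgeR adjusted p = 7.96e-05). In the first the root mean was the higher and in the second the rhizophore mean. The calls of these 4 models in the contrast of sides held in all 21 alternatives.

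Counts were spread over more models in leafless libraries. The 10 most abundant models took 7.02 ± 2.33% of counts in leafless libraries (SD, n = 4) and 32.4 ± 0.85% in leafy ones, and the sides did not overlap (exact two-sided permutation test, p = 0.0286, the smallest that 4 against 4 libraries allow). Without the 93 models of the runs these shares were 5.396 ± 3.105% and 12.5 ± 3.32%, and rhizophore replicate 1, at 9.89%, then exceeded both leaf libraries, at 9.46% and 9.80% (n = 4 per side, exact permutation p = 0.0857). Both permutation tests count the libraries of an organ as separate members of a side, so they do not measure the spread between organs.

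Between 18593 and 24858 models were above 0 in leafless libraries and between 15320 and 19749 in leafy ones, a difference of 3984 that did not pass (exact two-sided permutation test, p = 0.143). Thinned to 2826533 counts, the depth of leaf replicate 1, with a model counted from 5 reads as in the table, root libraries held 20246 and 23327 models, rhizophore libraries 16202 and 15702, and leafy libraries 14587 to 15320. The sides then did not overlap (exact permutation p = 0.0286), and both root libraries stood well above the rest. Here too, libraries and not organs were the units of the permutation test.

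Some models were listed above 0 on the leafless side alone. Over all rows, 4629 models were at 0 in all 4 leafy libraries and 78 at 0 in all 4 leafless ones, of which 74 were at 0 in all 8. Root libraries were the deepest and leaf replicate 1 the shallowest, and these counts were not repeated at equal depth. Of 3455 tested models at 0 in every leafy library, 504 were called higher in leafless organs, against 15.2% of all models tested. Being at 0 in every leafy library, the 3455 could be called in no other direction, so the 504 are a description. Their median leafless level was 2.14 CPM, against 2.15 CPM for 5 counts in leaf replicate 1, and 13 of them had a leafless mean of 10 CPM or more. Of the 504, 342 were above 0 in all 4 leafless libraries. In the other direction, 0 tested models were at 0 in all 4 leafless libraries. By single organ, 211 of the 3302 models lower in leafless organs were at 0 in both rhizophore libraries, and 1 was at 0 in both root libraries. Of the 3598 higher models, 856 were at 0 in both shoot libraries and 562 in both leaf libraries. Among all models tested 6100 had an organ at 0, but they were not counted by organ. The level that 5 counts stand for also differs between libraries, so these counts by organ are a description.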

How the data were processed

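Per the labels' protocols, the Nugen Ovation Amp V2 DR kit was used and reads were 50 bp, single-end. The authors deposited raw read counts per model and library, and a second table of signal per organ that is normalized and averaged over replicates, per the file headers. Per the submitters' processing notes, Bowtie2 and edgeR were used; their versions, the genome build, annotation and strand handling are stated by no source used here.

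Counts were tested with edgeR 4.0.16 (R 4.3.3): TMM scaling, filterByExpr (23662 of 25004 models kept), a robust quasi-likelihood fit to the 8 libraries with 1 term for each organ, and Benjamini-Hochberg adjustment over all models tested, at 0.05. Adjusted p-values are from edgeR unless another tool is named. SE was obtained from the fold change and F. Levels are TMM-scaled CPM. Folds against an organ at 0 use 5 counts per library, for counting error only. The procedure was also run on simulated data in which the organs of a side had equal levels. Root and rhizophore differed in the real data, so that run does not show how the test performs on them. The authors' deposited averages were decomposed by non-negative least squares (scipy 1.17.1), first on unscaled CPM and then on TMM-scaled CPM, the second chosen after the first result was seen. DESeq2 1.42.0 and limma 3.58.1 (voom) were alternatives.

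The 21 named models had an adjusted p under 0.05, sides that did not overlap and at least 50 CPM in every library of the higher side. From these were taken, per direction, the pair with the largest fitted fold and the most abundant pair. The pairs with the smallest and the largest difference between the organs of the higher side (most and least even) were also taken. Leaders of each pairing of organ comparisons were added without the 50 CPM minimum. No lower model qualified as least even, and 106449.v1 led both pairings. The comparison, rules and lists were chosen with earlier results of these data known. The 20 lists of gene names matched 0 models and were not used. None of the named models was in the 197 pairs with counts differing by at most 0.1 log2 in every library (mean count of at least 100).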

Additional observations from a re-analysis of the deposited data

Results flagged for a closer look

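For 10 of the 21 named models the distance from the leafy organs differed between root and rhizophore, by the edgeR test of rhizophore against root. Among models higher in leafless organs, the rhizophore minus root log2 fold change was 1.08 for 269004.v1 (adjusted p = 0.0428), 1.12 for 267058.v1 (0.0356) and 2.98 for 176603.v1 (0.00073), and it was -2.32 for 173723.v1 (0.00208) and -2.98 for Smoe_00009542 (0.00067). Among models lower there, it was -7.04 for 236852.v1 (0.00338), -5.20 for 139170.v1 (0.00732), -5.37 for Smoe_00044417 (0.00263) and 1.42 for 146305.v1 (0.0271). For 105500.v1 it was -11.04 (0.000458), a fitted value that is no measure of size because both rhizophore libraries were at 0.

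In 2 models a single leafy library stood apart from the other 3: leaf replicate 2 at 118 CPM for 176603.v1, and leaf replicate 1 at 6.03 CPM for 233421.v1. Among 48 groups of 4 libraries examined, chance gives such a gap in about 1 of 20, so 2 are no more than chance gives.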

How the results depend on the processing

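The cause of the changes below was not tested. With 1 term per side, where differences between the organs of a side enter the spread, 2650 models were called, 1423 higher and 1227 lower. With rhizophore replicate 2 taken as a root there were 1886, 859 and 1027, with 109 differing within the leafless side and 0 and 5 in the pairings. At an adjusted p under 0.01 there were 3231, 1222 and 2009, with 833 within the side and 356 and 313 in the pairings. For a difference above 1 on the log2 scale, an alternative added after seeing the data, there were 2553, 1091 and 1462, with 649, 356 and 304. DESeq2's test gave 2597 and 2456 in the pairings, limma-voom 1602 and a minimum of 10 CPM in 4 libraries 1731 in the second.

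Leaving out 1 library gave 3692 to 11836 calls, 1523 to 7130 higher and 1883 to 4706 lower, with 834 to 6010 within the side and 107 to 5250 and 49 to 5185 in the pairings. The share of the 10 most abundant models then differed by -26.4 to -24.7 percentage points, and by -7.10 without the 2 runs; the exact permutation test of 3 against 4 libraries has too few arrangements to pass. The difference in models above 0 was 3903 after thinning, which passed with libraries counted as separate members of a side.

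With the replicate number as a block 5645 models were called, 2650 higher and 2995 lower. Deviations of same-numbered libraries correlated from -0.0337 to 0.0888, so the numbers were not taken as pairs. None of the named models reversed under these alternatives. Leaf replicate 1, the shallowest library, sets the depth limit for scarce models.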

Other observations

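Of 2717 models tested whose name starts with Smoe, 16.4% were higher in leafless organs and 20.7% lower, against 15.1% and 13.1% of 20945 numbered models. Of the 6900 models that differed (29.2% of those tested), 131 belonged to pairs with counts within 0.1 log2 of each other in every library. Such pairs held 393 models, so the 131 say nothing particular about the models that differed. Whether these pairs share reads was not tested.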
